A study of Mus musculus with 4 samples.

Results

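The 10 genes described here control how a cell takes up, stores, senses and recycles iron: Tfrc, Slc11a2, Slc40a1, Fth1, Ftl1, Ireb2, Aco1, Fbxl5, Hmox1 and Bach1. They were chosen by name, and all 10 were found among the 50600 genes of the deposited tables; 9 of them had counts. The tables hold 4 RNA-seq libraries of T-helper 17 cells, the CD4 T cells that make interleukin 17, prepared as primary cells from C57BL/6NJ mice. The labels give 1 group, biological replicates 1 to 4, with a separate biosample for each library and a single donor identifier for all of them. They name no treatment, genotype change or time, state sex as not collected and age as unknown, and a tag of 2 hours in the headers of the count tables has no stated starting event. The labels do not say whether the biosamples were separate animals or cultures, so an SD or p-value here covers the spread between these libraries, whose animal and technical parts cannot be told apart.

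Iron enters most cells bound to transferrin, through the transferrin receptor, and is pumped out of endosomes by the metal transporter DMT1. Spare iron is held in ferritin shells built of heavy and light chains, and ferroportin is the known cellular exporter. The RNA-binding proteins IRP1 and IRP2 bind a hairpin, the iron responsive element, when iron is low; this blocks translation of ferritin mRNA and protects transferrin receptor mRNA from decay. Heme oxygenase 1 breaks heme down and frees its iron, and the repressor BACH1, which heme inactivates, holds its gene down. Activated T cells are known to raise the transferrin receptor as they prepare to divide.

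The hairpins are shown because they are the sites that IRP1 and IRP2 are known to bind. A hairpin was searched for in the UTRs of coding transcripts (GENCODE M21, build GRCm38, the sequence called mm10 in the files) on the transcript strand only, as a C, 5 bases of any kind, the letters CAGTG and 6 bases of any kind, with the last 5 able to pair with the 5 after the first C (G-T pairs allowed). It occurred in 4 of the 10 genes, with 7 elements, against 160 of 21901 protein coding genes (0.731%) searched the same way. In each 30-base window below, the capitals mark the 6-base loop. Those of Fth1 (chr19:9982732-9982761, plus strand), Ftl1 (chr7:45459778-45459807, minus strand) and Slc40a1 (chr1:45925464-45925493, minus strand) lie in the 5′ UTR. The 4 of Tfrc, in order from the 5′ end (chr16:32631219-32631248, chr16:32631598-32631627, chr16:32631663-32631692 and chr16:32631710-32631739, plus strand), lie in the 3′ UTR.
Fth1: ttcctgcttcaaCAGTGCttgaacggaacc
Ftl1: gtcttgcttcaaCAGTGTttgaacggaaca
Slc40a1: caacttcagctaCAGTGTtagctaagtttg
Tfrc 1: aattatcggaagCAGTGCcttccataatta
Tfrc 2: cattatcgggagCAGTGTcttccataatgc
Tfrc 3: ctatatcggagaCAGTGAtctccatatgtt
Tfrc 4: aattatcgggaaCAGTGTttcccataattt

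The Fth1 and Ftl1 windows were the same at 26 of 30 bases. The Slc40a1 window shared 13 of 30 with Fth1 and 13 of 30 with Ftl1. Among the Tfrc windows the number of identical bases lay between 18 (windows 2 and 3) and 25 (windows 1 and 2). A match is a description of these letters, and Slc11a2, whose mRNA is known to have a hairpin form in its 3′ UTR, held none under this pattern in its annotated UTRs, which says only that these letters were not found there.

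Total counts were 36298276, 40652146, 26953724 and 25847970 in replicates 1 to 4. The labelled cell type was checked against its markers: all 7 T cell genes reached 1 TPM, led by Trac at 3565 ± 251 TPM, and 8 of 10 Th17 markers did so, with Irf4 at 1856 ± 292 TPM, while Ccr6 and Il23r stood at 0.207 ± 0.177 and 0.132 ± 0.124 TPM (SD, n = 4). Il17f stood at 12.4 ± 5.91 TPM and was the only one of the Th17 markers to vary between the libraries (edgeR adjusted p = 0.0171). TPM is the count divided by the exon length of the gene, scaled to one common total in every library. Sex-linked genes set the libraries apart: Xist stood at 0.791 and 0.602 TPM in replicates 1 and 2 and at 142 and 76.5 TPM in replicates 3 and 4, and Ddx3y at 305, 213, 0.914 and 1.39 TPM in the same order. Replicates 1 and 2 were therefore not from the same animals as replicates 3 and 4, although the labels carry a single donor identifier.

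The ferritin chains were the most abundant of the 10 transcripts, and 9 of the 10 genes averaged at least 1 TPM, against 45.2% of the 21764 protein coding genes. The median over the 10 genes, with Slc40a1 at 0, was 31.8 TPM, against 0.279 TPM over all protein coding genes. Over the 9831 protein coding genes of 1 TPM or more it was 24.9 TPM, a filter not applied to the 10 genes. The mean levels ran in the order Fth1, Ftl1, Tfrc, Bach1, Ireb2, Fbxl5, Aco1, Slc11a2, Hmox1 and Slc40a1, and this order was the same in 4 of 4 libraries with the deposited exon lengths. The place of Fth1 above Ftl1 depends on gene length. The means were 2217 and 2870.1 TPM with unshared exon length, and 730.4 and 1155 TPM with the longest annotated transcript. That transcript of Fth1 has 2062 bases, while its fragments were counted over 866, so this last setting lowers Fth1 by construction. The unshared length of Fth1 was also set from all its annotated transcripts, so it is uncertain for the 866 bases counted. Tfrc and Bach1 overlapped in range, with a difference of 0.42 ± 0.18 in log2(TPM + 1), as did Aco1 and Slc11a2. The difference between Aco1 and Slc11a2, 0.23 ± 0.29 on the same scale, was smaller than its own SD. The ranges of the other neighbours did not overlap with the deposited lengths.

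**Figure D1:**
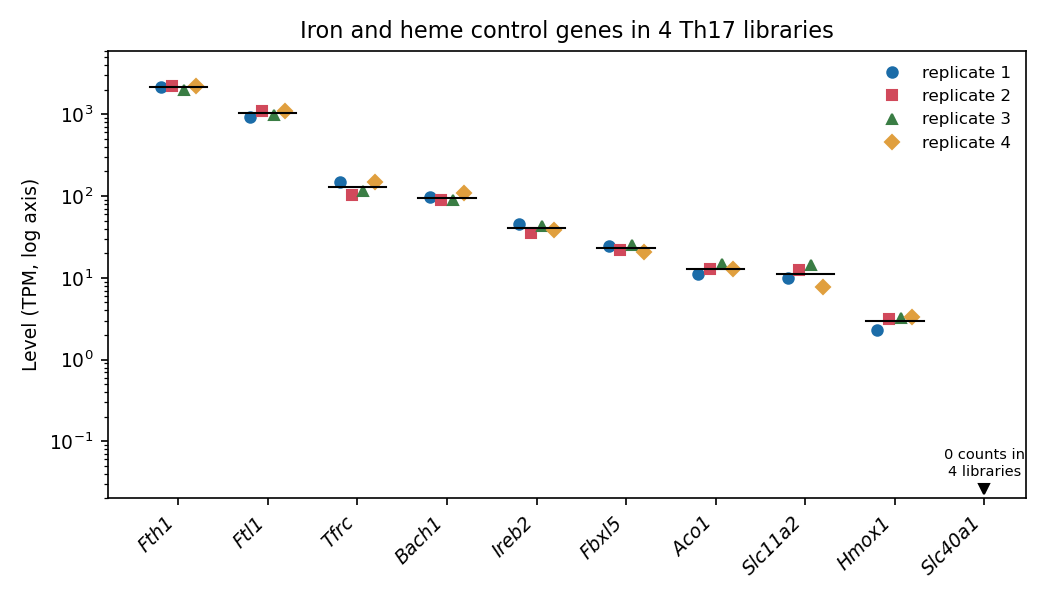
Level of each gene in TPM on a log axis, with a symbol for each replicate and a line at the mean of 4 libraries. Fth1 and Ftl1 stand at 928 TPM or more in every library, Hmox1 between 2.28 and 3.33 TPM, and Slc40a1 is marked by a triangle at the foot of the axis because it had 0 counts.

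Tfrc, the gene of the transferrin receptor that brings in transferrin-bound iron, lies on chromosome 16 from 32608920 to 32632794 (mm10). It stood at 150.2, 104, 117 and 149 TPM in replicates 1 to 4, on 9764, 7829, 5484 and 7111 counts. Replicates 1 and 4 were high and replicates 2 and 3 low. Its mean of 129.9 ± 23.3 TPM lay above 94.3% of protein coding genes, and none of the 31-base stretches (words) of its transcripts occurred in another gene. Slc11a2, which encodes DMT1 (chromosome 15 from 100387898 to 100425072), stood at 9.97, 12.3, 14.3 and 7.72 TPM, mean 11.1 ± 2.87. Here replicate 3 was highest and replicate 4 lowest, so the libraries high for Tfrc were the low ones for Slc11a2. Tfrc exceeded Slc11a2 by 8.16 to 19.3-fold in TPM, and in log2(TPM + 1) by 3.45 ± 0.58.

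Slc40a1, the gene of the iron exporter ferroportin (chromosome 1 from 45908068 to 45926523), had 0 counts in each of the 4 libraries over 9000 exonic bases. With 0 counts, a level of up to 3 counts cannot be told from none, which corresponds to 0.0317, 0.0273, 0.0440 and 0.0431 TPM in replicates 1 to 4; this limit covers counting error only. Of the protein coding genes, 36.8% had 0 counts in every library. Against that limit in each library, Tfrc was at least 2660 to 4736-fold higher. Only 0.198% of the 31-base words of Slc40a1 occurred in another gene, and no exon of another gene overlapped it on its strand. Macrophages that recycle iron are known for high Slc40a1 and Hmox1. Of 12 macrophage markers 1 reached 1 TPM, Cd68 at 10.4 ± 5.33 TPM, and C1qa, Spic and Marco had 0 counts; the summed level of the 12 lay between 5.69 and 18.2 TPM over the libraries. Their part in the levels of Hmox1 and Slc40a1 was not tested. In bulk RNA, fewer cells of a type and less RNA per cell cannot be told apart.

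Fth1, the ferritin heavy chain, which oxidises iron as it enters the shell, lies on chromosome 19 from 9982703 to 9985092. It stood at 2159, 2249, 1963 and 2207 TPM in replicates 1 to 4, mean 2145 ± 127, above 99.8% of protein coding genes. Ftl1, the light chain, which favours formation of the mineral core, lies on chromosome 7 from 45457944 to 45459884. It stood at 928, 1104, 977 and 1107 TPM in the same order, mean 1029 ± 90.8. The lowest Fth1 library was thus above the highest Ftl1 library. Together these chains made up 90.1 to 92.3% of the summed TPM of the 10 genes, and Fth1 was 14.4 to 21.7-fold above Tfrc in TPM. With the longest transcript as length the means of Fth1 and Tfrc stood closer, at 730.4 and 133 TPM. For Fth1 that length is 2062 bases against the 866 counted, so part of this change is built in.

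The Fth1 to Ftl1 ratio was 2.33, 2.04, 2.01 and 1.99 in replicates 1 to 4 as the counts stand, a difference of 1.06 ± 0.11 on the log2(TPM + 1) scale. This order was not firm. Of the 31-base words of Ftl1, 64.1% also occur in another gene, most often Ftl1-ps1, against 3.24% for Fth1. Fragments with several alignments were not counted. The words came from all annotated transcripts of a gene, 3578 words for Fth1 against 866 bases counted, and 1389 for Ftl1 against 1340. The shared part of the counted Fth1 bases was not computed and may exceed 3.24%, so the scaled value that follows is uncertain. With exon length scaled to the unshared words the difference turned to -0.37 ± 0.11. With the length of the longest annotated transcript of each gene it was -0.66 ± 0.11. This second value cannot decide the order, because the longest Fth1 transcript has 2062 bases and fragments were counted over 866. Gm22133 also overlaps 109 of the 1340 exonic bases of Ftl1 on its strand (8.13%), and whether fragments were lost there was not tested. Because of the shared words, which chain was more abundant cannot be told from these counts. The copies with names starting in Fth or Ftl took few counts. These were 67 over the Fth copies (65 of them Fth-ps2 and 2 Fth-ps3) and 43 over the Ftl copies (41 of them Ftl1-ps1, 1 Ftl1-ps2 and 1 Ftl2-ps). They amounted to 0.0942% and 0.0818% of the counts of Fth1 and Ftl1. Genes under other names were not summed, such as Gm6977, which shares 2.85% of the words of Fth1. Ftl1 shares words with 33 other genes. The X-linked Fthl17 genes and pseudogenes had 0 counts.

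Among the sensors, Ireb2 stood above Aco1 in every library. Ireb2 encodes IRP2, which is degraded when iron is plentiful, and lies on chromosome 9 from 54863789 to 54912530. It stood at 45.3, 35.3, 43.4 and 38.1 TPM in replicates 1 to 4, mean 40.5 ± 4.63. Aco1 (chromosome 4 from 40143081 to 40198338) encodes IRP1, which doubles as cytosolic aconitase when it carries an iron-sulfur cluster. It stood at 11.2, 12.9, 14.7 and 12.8 TPM, mean 12.9 ± 1.41. The lowest Ireb2 library stood above the highest Aco1 library. Their difference was 1.58 ± 0.23 on the log2(TPM + 1) scale, a ratio of 2.74 to 4.04 in TPM. Fbxl5, the iron-binding ubiquitin ligase subunit that marks IRP2 for destruction (chromosome 5 from 43744615 to 43821638), stood at 24.4, 21.9, 24.9 and 20.7 TPM, mean 23.0 ± 1.99. It lay below Ireb2 in every library, by -0.79 ± 0.09, and that gap narrowed to -0.32 with the longest transcript as length.

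Bach1, the heme-sensitive repressor, stood far above Hmox1, the gene it is known to repress. Bach1 (chromosome 16 from 87698945 to 87733346) stood at 96.4, 90.1, 88.6 and 108 TPM in replicates 1 to 4, mean 95.7 ± 8.72. Hmox1 (chromosome 8 from 75093621 to 75100589) stood at 2.28, 3.18, 3.24 and 3.33 TPM, mean 3.01 ± 0.487, on 42, 68, 43 and 45 counts. Replicate 1 was the low library for Hmox1; its exact 95% Poisson interval, 1.64 to 3.08 TPM, overlapped those of replicates 2, 3 and 4 (2.47 to 4.03, 2.35 to 4.37 and 2.43 to 4.45 TPM). Bach1 exceeded Hmox1 by 4.60 ± 0.22 on the log2(TPM + 1) scale. Hmox2, the constitutive heme oxygenase, stood at 45.1, 43.6, 42.0 and 53.1 TPM, and Hmox1 lay below it by -3.55 ± 0.22. Hmox2 shares 46.0% of its 31-base words with other genes, 37.0% with Cdip1. Words were matched on either strand and overlapping genes were kept, so shared words need not mean lost fragments. Whether fragments of Hmox2 were lost was not tested, so its level is uncertain. Scaling its length to the unshared part widened the gap to -4.43.

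The 8 gene pairs chosen by role were Fth1 with Ftl1 and with Tfrc, Tfrc with Slc11a2 and with Slc40a1, Ireb2 with Aco1 and with Fbxl5, and Hmox1 with Bach1 and with Hmox2. In each pair the difference had one sign in 4 of 4 libraries. A two-sided permutation test, exact over all sign flips, gave p = 0.125 for each, also after Benjamini-Hochberg adjustment over the 8 pairs. That is the smallest p that 4 libraries allow, so no pair could pass 0.05. The Tfrc minus Slc40a1 difference of 7.01 ± 0.26 depends on the pseudocount, since Slc40a1 is at 0, and was 10.3 with a pseudocount of 0.1.

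**Figure D2:**
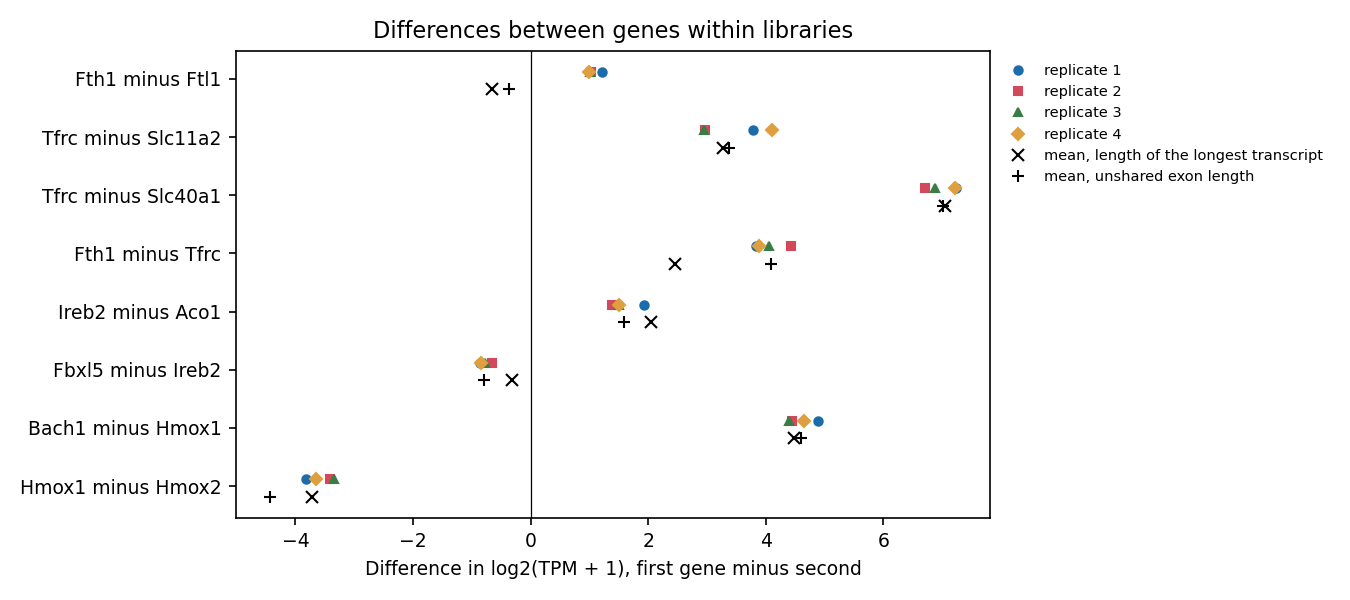
Differences in log2(TPM + 1) between the genes of each pair, first minus second, with a symbol for each replicate. A cross and a plus give the mean when gene length is the longest transcript or the unshared exon length; they fall on the other side of 0 for Fth1 minus Ftl1 alone among the 8 pairs.

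The next question was whether any of these genes differed between the libraries by more than genes of like abundance. For this, counts were scaled by the TMM method of edgeR to counts per 1000000 (CPM), and each gene's spread was tested against the trend of the biological coefficient of variation (CV). The expression filter kept 9 of the 10 genes, all but Slc40a1. None of the 9 varied beyond the trend (edgeR deviance test, adjusted p of 0.903 or above), against 94 of 11567 genes tested, or 0.813%. None had an unadjusted p under 0.05 either, against 692 (5.98%) of all genes tested. With the DESeq2 dispersion trend 0 of 9 passed after adjustment and 1, Tfrc, had an unadjusted p under 0.05 (0.0234, adjusted 0.604), against 5.84% of all genes. Counts of 0 and 1 among 9 genes do not stand apart from these shares. The median range over the libraries was 0.37 on the log2 CPM scale for the 9 genes and 0.41 for all genes tested. The median CV went the other way, at 13.3% for the 9 genes and 12.6% for all genes tested.

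Slc11a2 and Tfrc came closest to the threshold. Slc11a2 had 18.6, 23.7, 24.5 and 15.1 TMM-scaled CPM in replicates 1 to 4, a CV of 21.8% against a trended 13.8% (edgeR adjusted p = 0.903). Tfrc had 272.7, 193.6, 195.1 and 282.6, a CV of 20.5% against a trended 13.6% (edgeR adjusted p = 0.961). The values of Tfrc fell into a high set, replicates 1 and 4, and a low set, replicates 2 and 3, and Slc11a2 had the reverse arrangement. Fbxl5 had the narrowest spread, with 69.7, 64.6, 65.4 and 62.0 CPM and a CV of 4.87%. Ireb2 and Aco1 had CVs of 9.16% and 8.36%. The CVs of Fth1, Ftl1 and Bach1 were 11.3%, 13.3% and 13.6%, and all 3 were lowest in replicate 3 on this scale. Hmox1 had a CV of 17.4%, below its trended 25.04%.

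**Figure D3:**
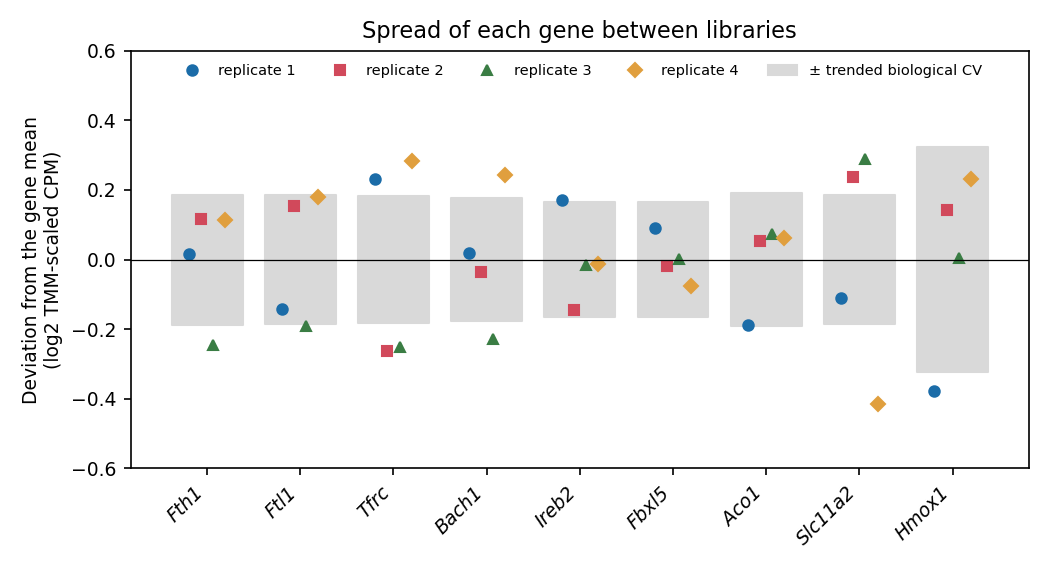
Deviation of each library from the mean of the gene, in log2 TMM-scaled CPM, for the 9 genes tested; the grey band is the trended biological CV at the abundance of the gene. Tfrc is high in replicates 1 and 4 and low in replicates 2 and 3, and Slc11a2 the reverse. The 4 points of Fbxl5 stay inside the band, as do those of Aco1, with replicate 1 near its edge.

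**Figure D4:**
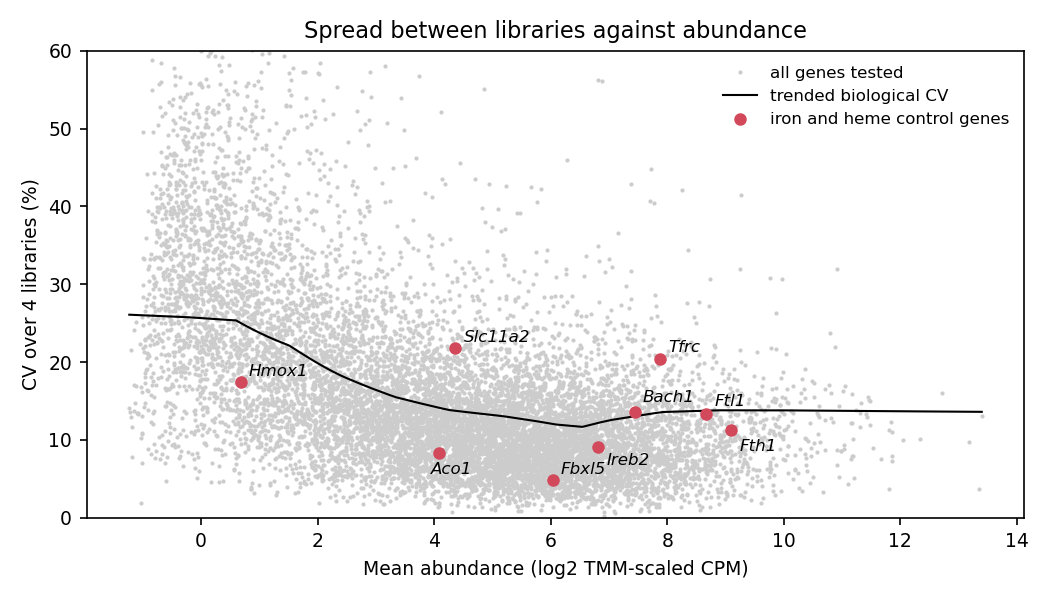
CV over 4 libraries against mean abundance for all 11567 genes tested (grey), with the trended biological CV (line) and the 9 genes named. Slc11a2 and Tfrc lie above the line at 21.8% and 20.5%, and Fbxl5, Aco1, Ireb2, Fth1, Ftl1 and Hmox1 below it, with Bach1 just above; 71 genes with a CV over 60% fall outside the axis.

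In TMM-scaled CPM, the 2 highest libraries were replicates 1 and 4 for Tfrc, Ireb2 and Bach1, and replicates 2 and 4 for Fth1, Ftl1 and Hmox1. Over all genes tested these pairs of libraries were highest in 20.7% and 20.2%. The highest pair was replicates 2 and 3 for Slc11a2 (20.3% of all genes), 1 and 3 for Fbxl5 (20.9%) and 3 and 4 for Aco1 (8.21%), and none of the 9 had replicates 1 and 2 on top (9.71%). No difference from these shares was tested. For Ireb2 second place was a near tie, with 110.97 CPM in replicate 4 and 110.83 in replicate 3. The same held for Aco1, with 17.61 CPM in replicate 4 and 17.51 in replicate 2. In TPM a different pair was highest for Ireb2, Aco1 and Hmox1. In level over the 4 libraries, the protein coding genes nearest to Tfrc by root mean square difference in log2(TPM + 1) were Rcl1 (0.07), Tex2 (0.08) and Pes1 (0.08). Those nearest to Fth1 were the ribosomal protein genes Rps21, Rps2 and Rpsa (0.11 each).

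Other genes of the pathway were read from 6 lists, none of whose tested members varied beyond the trend. Of 23 measured genes of iron transport and ferritin turnover, 9 averaged at least 1 TPM and 6 had 0 counts, with a median of 0.210 TPM against 0.279 TPM over all protein coding genes. Pcbp1 and Pcbp2, chaperones known to deliver iron to ferritin, led at 595 ± 51.4 and 493 ± 24.9 TPM. Pcbp2 shares 36.1% of its 31-base words with other genes, 28.4% with Map3k12, and whether its fragments were lost was not tested. Picalm, a clathrin adaptor, stood at 95.7 ± 7.32 TPM. Steap1 and Steap2 had 0 counts. Ncoa4, the receptor that takes ferritin to the lysosome, stood at 29.3 ± 2.58 TPM, and the mitochondrial iron importers Slc25a37 and Slc25a28 at 25.1 ± 3.38 and 33.5 ± 6.64 TPM. These last 3 genes were named for their role after their values were seen.

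All 9 partners of iron sensing reached 1 TPM, with a median of 74.3 TPM. Hif1a, the oxygen-regulated factor, stood at 522 ± 38.02 TPM, Nedd8, the modifier of cullin ligases, at 226 ± 24.3 TPM, and Skp1a, the adaptor that ties F-box proteins such as FBXL5 to their ligase, at 166 ± 6.90 TPM. The lowest were Egln1, an oxygen-sensing hydroxylase, at 39.1 ± 5.96 TPM and Epas1 at 18.5 ± 2.52 TPM. All 22 genes of iron-sulfur cluster assembly reached 1 TPM, with a median of 28.3 TPM. They ran from Hspa9, the mitochondrial chaperone, at 479 ± 59.04 TPM, Isca2 at 91.8 ± 5.13 TPM and Nubp2 at 69.4 ± 6.74 TPM down to Nfu1 at 7.86 ± 0.219 TPM and Lyrm4 at 7.30 ± 1.11 TPM.

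Heme synthesis genes stood lower, with 8 of 9 at 1 TPM or more and a median of 6.44 TPM. Fech, the ferrochelatase that inserts the iron, stood at 24.6 ± 1.21 TPM, Urod at 23.6 ± 2.12 TPM and Ppox at 19.6 ± 7.34 TPM, and Alad was the lowest with counts at 5.29 ± 1.69 TPM. Alas2, the erythroid form of the first enzyme, had 0 counts. Of 9 erythroid markers, 6 had 0 counts and 1, Gata1, reached 1 TPM, at 11.1 ± 2.14 TPM. Hba-a1, Hba-a2, Hbb-bs and Hbb-bt, 4 of the 6 at 0, share 54.4 to 92.6% of their 31-base words with other globin genes, so fragments from them could go uncounted. Of 14 genes of heme transport and breakdown 8 reached 1 TPM. Por, the reductase that feeds electrons to heme oxygenase, stood at 119 ± 12.4 TPM, Pgrmc1 at 94.7 ± 2.46 TPM and Flvcr1, known as a heme exporter, at 50.1 ± 1.63 TPM, while Flvcr2 and Hebp1 rested on 5 counts and 1 count in all.

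The last list held BACH1 and its rival NRF2 with their small MAF partners and target genes. Of its 16 members 12 reached 1 TPM, with a median of 50.3 TPM. The MAF partner genes Maff and Mafk stood at 249 ± 35.4 and 175 ± 3.56 TPM, and Prdx1, a peroxide reductase, at 190.4 ± 22.7 TPM. Bach2, the related lymphocyte repressor, stood at 61.3 ± 9.70 TPM, and Bach1 was 1.19 to 1.91-fold above it. Nfe2l2, the NRF2 gene, stood at 92.0 ± 8.74 TPM and Keap1, its inhibitor, at 21.6 ± 2.80 TPM. Target genes differed widely in level. Txnrd1 stood at 143 ± 14.6 TPM, against 7 counts in all for Nqo1, 15 for Slc7a11 and 0 for Me1. Bach2, Nfe2l2, Keap1, Txnrd1 and Nqo1 were named after their values were seen.

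**Figure D5:**
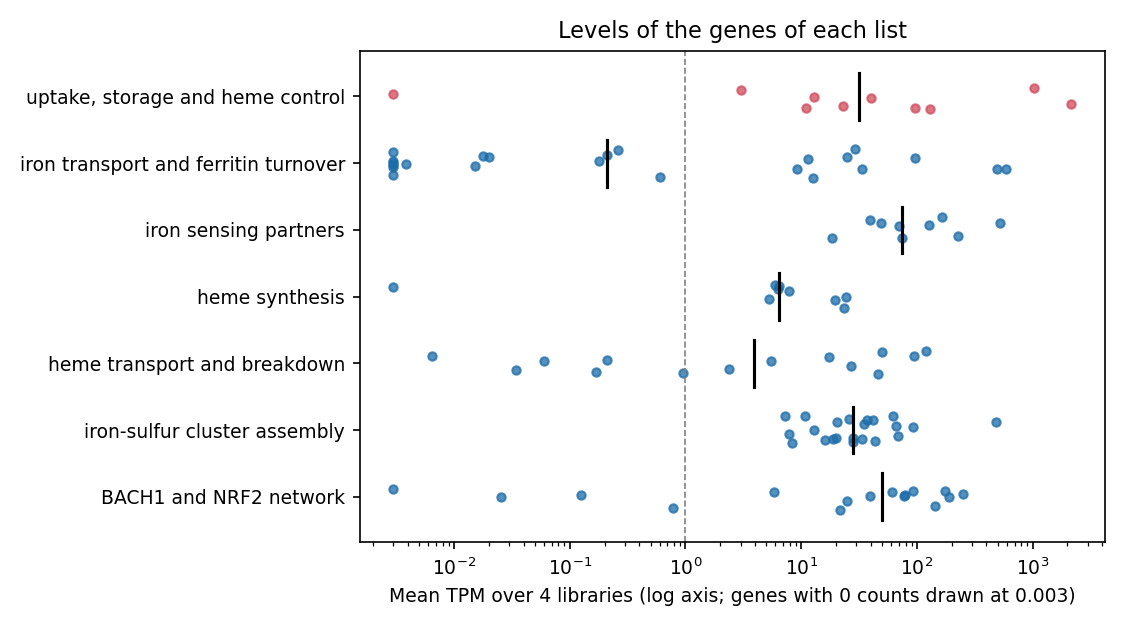
Mean TPM over 4 libraries of every gene of each list, on a log axis, with a bar at the list median and a dashed line at 1 TPM. Genes with 0 counts are drawn at 0.003; the lists of iron sensing partners and iron-sulfur cluster assembly have no gene below 1 TPM.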

How the data were processed

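Gene expression was measured in 4 Th17 libraries of 1 group. The authors deposited raw counts of fragments over GENCODE M13 exons; featureCounts 1.4.6-p4 made them, per the file headers. The recorded options count read pairs, require both ends mapped and use reverse strandedness (option 2); none was recorded for fragments with several alignments, so those were not counted and genes with copies are undercounted. No source used here gives the aligner version. Exon length is the deposited union exon length in bases. TPM was computed from both, and symbols and biotypes came from GENCODE M21, which matched 50376 of 50600 identifiers. Tf was not analysed here.

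The members and lists were chosen with earlier results of these data known. Named genes were all 10 members, the 3 highest and 2 lowest of each pathway list and any that varied, with exceptions marked. Genes near Tfrc and Fth1 in level were named too; those near Hmox1 are not reported here. Of 8 B cell markers 3 reached 1 TPM, led by Ighm at 138 ± 12.6 TPM.

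Variation was tested with edgeR 4.0.16 in R 4.3.3: intercept only, expression filter, TMM, and a deviance test at the trended dispersion (chi-square, 3 degrees of freedom), with Benjamini-Hochberg adjustment over all genes tested and a threshold of 0.05. With 1 group the quasi-likelihood test of a coefficient had nothing to compare. The step was tested on simulated counts. DESeq2 1.42.0 gave an alternative trend. Pairs of libraries gave a chi-square of 15.3 to 49.0 per degree of freedom, and none was identical. Each was counted as 1 replicate, as labelled, although these checks do not show that each library came from a separate animal. Alternatives covered scaling, filter, pseudocount, gene length, shared sequence and leaving out each replicate. Other steps ran in Python 3.11.15.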

Additional observations from a re-analysis of the deposited data

Results flagged for a closer look

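Hmox1 in replicate 1, at 2.28 TPM on 42 counts, stood apart from the other libraries at 3.18, 3.24 and 3.33 TPM. Its gap to the nearest library was 0.856 of the whole range in TPM, above the Dixon critical value of 0.829 for 4 samples. In TMM-scaled CPM replicate 1 was less set apart, with 1.17, 1.68, 1.53 and 1.79 in replicates 1 to 4. The flag was not computed on that scale. Chance flags about 1 in 20 groups, and 9 genes were examined. The gene did not vary beyond the trend (edgeR adjusted p = 1.00).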

How the results depend on the processing

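Of the settings tried on the 8 gene pairs, only the gene length ones could turn a sign, and 2 of their 16 values did. Both were Fth1 minus Ftl1, at -0.66 with the length of the longest transcript (for Fth1 a form with a retained intron) and -0.37 with unshared exon length. The longest transcript also moved Fth1 minus Tfrc from 4.05 to 2.46 and Fbxl5 minus Ireb2 from -0.79 to -0.32. For Fth1 that length, 2062 bases, exceeds the 866 bases counted, so its lower level under this setting is built in. The unshared part of Fth1 was taken over words of all its annotated transcripts, so the value of -0.37 is uncertain too. Adding the counts of the ferritin copies named Fth or Ftl, an alternative chosen after seeing the data, gave 1.06 for Fth1 minus Ftl1. Shared fragments are missing from parents and copies alike, so this alternative tests nothing about them. Without 1 replicate the number of varying genes was 35 to 60, against 94 with all 4; fewer samples were fitted. The number of iron and heme control genes varying stayed at 0 under every setting run, although Slc11a2 had an unadjusted p of 0.0448 without replicate 3, where 5.46% of all genes had one under 0.05. No paired analysis was possible because there is 1 group. Depth limits Hmox1 (198 counts) and Slc40a1 most.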

Other observations

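Among the 69 pathway genes tested, 4 (5.80%) had an unadjusted edgeR p under 0.05 for variation between the libraries, which is close to the 5.98% over all genes tested. All 4 were highest in replicate 3. They are named here after their values were seen. Mms19, a factor that delivers iron-sulfur clusters to nuclear enzymes, stood at 27.2, 19.6, 37.6 and 18.6 TPM in replicates 1 to 4 (edgeR adjusted p = 0.123). Ppox, the heme synthesis enzyme before ferrochelatase, stood at 18.2, 14.2, 30.4 and 15.8 TPM (edgeR adjusted p = 0.236). Ndor1, a reductase of cytosolic cluster assembly, had an edgeR adjusted p of 0.606, and Mcoln1, a lysosomal cation channel, an edgeR adjusted p of 0.786. None passed the adjusted threshold. Over all genes tested, 30.3% were highest in replicate 3.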
